A study of Mus musculus with 2 samples.

Results

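The MYC, MAX and MXD network was described in mouse hematopoietic stem cells, or HSC, which renew themselves and produce all blood lineages. Its members were chosen by name, from the known composition of the network: the activators Myc, Mycn and Mycl, their partner Max, and the antagonists Mxd1, Mxd3, Mxd4, Mxi1, Mnt and Mga. All 10 were present among the 69691 features of each gene table. Total RNA, 100 ng per library, was depleted of ribosomal RNA and sequenced after ScriptSeq library preparation. The series held 1 group, HSC of adult C57BL/6J male mice at an age of 5 to 6 weeks, with no treatment or allele named in the labels. It had 2 biological replicates from separate biosamples. Nothing in the labels says that these were separate animals, so the spread between them may be technical. The labels also do not name the surface gate by which the cells were isolated.

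Replicate 1 held 27901074 estimated counts and replicate 2 held 48490188, of which 23238 and 40452 fell on the network. Values are in TPM, a level per transcript length whose sum over a table is fixed. Protein-coding genes held 16.3% of TPM in replicate 1 and 20.3% in replicate 2, so a difference between replicates was also computed on TPM over protein-coding genes and on counts scaled by edgeR's TMM. HSC and progenitor markers summed to 434 TPM in replicate 1 and 460 TPM in replicate 2. Of these 11 markers 10 reached 1 TPM in both. Slamf1, which encodes the HSC surface protein CD150, was below that level, at 0.42 and 0.43 TPM. The list joins HSC and progenitor genes, among them Flt3 at 57.9 and 53.2 TPM and Cd48 at 16.1 and 12.4 TPM. Its sum therefore does not tell HSC from progenitors. Neutrophil markers summed to 3168 TPM in replicate 1 and 1207 in replicate 2, and all 10 were higher in replicate 1. Erythroid markers summed to 104 and 224 TPM, and all 9 were higher in replicate 2. In such bulk samples, fewer cells of a type and less RNA per cell cannot be told apart.

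MYC proteins bind DNA as dimers with MAX, through a basic helix-loop-helix leucine zipper, at E-boxes such as CACGTG, and activate genes of growth, ribosome production and metabolism. MXD proteins, MNT and MGA dimerise with the same MAX, bind the same motif and repress, with MXD and MNT recruiting the SIN3 histone deacetylase complex and MGA a variant Polycomb complex. In HSC, Myc and Mycn are known to sustain survival and proliferation together, and Myc to promote exit from the stem cell niche.

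In these cells 9 of the 10 members had at least 1 TPM in both libraries, all except Mycl. Over all protein-coding genes 44% did. The levels fell into tiers that held in both libraries: Mga, then Max and Myc, then Mycn, then Mxd4, Mxd1 and Mxi1, then Mnt and Mxd3, with Mycl last. Of the 36 pairs among the 9 detected members, 31 were ordered, meaning that the direction was shared by both libraries and that the deposited TPM intervals were separate in each. Over all pairs of detected protein-coding genes 80.6% were ordered. The pairs that were not ordered were the neighbours inside a tier: Myc with Max, Mxd3 with Mnt, and the 3 pairs among Mxd1, Mxd4 and Mxi1. The deposited intervals have a level of about 95% and cover counting and read assignment only. Mycn stood above Mxd4, Mxd1 and Mxi1 by only 1.22-, 1.31- and 1.35-fold. These pairs were lost with a minimum of 1.5-fold and turned without division by length.

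**Figure D1:**
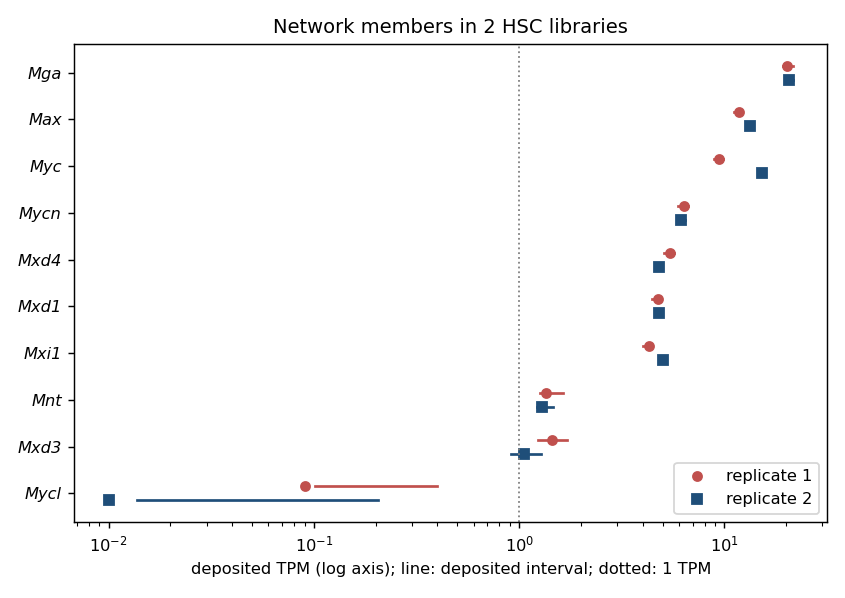
Deposited TPM of each member (points, log axis) with its deposited interval (lines) in replicate 1 (circles) and replicate 2 (squares), ordered by mean TPM. Mga stands at 20.2 and 20.7 TPM at the top and Mycl, whose points lie below their own intervals, at 0.09 and 0.01 TPM at the bottom.

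Myc (ENSMUSG00000022346.10, chr15:61985391-61990374, plus strand, GRCm38) encodes the founding MYC activator. It had 9.44 TPM in replicate 1 (deposited interval 8.87 to 9.88) and 15.2 TPM in replicate 2 (14.6 to 15.7), from 1626 and 3813 counts. This averaged 12.3 ± 4.08 TPM (SD, n = 2), the largest SD of the 10 members. Myc lay above 85.8% of protein-coding genes in replicate 1 and above 89.0% in replicate 2.

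Mycn (ENSMUSG00000037169.10, chr12:12936093-12941914, minus strand), the paralog best known from neural and early progenitor cells, had 6.36 TPM in replicate 1 (5.91 to 6.66) and 6.16 TPM in replicate 2 (5.87 to 6.42). These averaged 6.26 ± 0.141 TPM (SD, n = 2), and the intervals overlapped. Myc was the higher of the pair in both libraries, at log2 ratios of 0.57 (replicate 1) and 1.30 (replicate 2). Both paralogs were thus above the median of all protein-coding genes, which stood at 0.51 and 0.53 TPM. That median includes genes with little or no signal, since only 44% of them reached 1 TPM in both libraries. Mycn lay above 79.4% of all protein-coding genes in replicate 1 and above 75.8% in replicate 2.

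Mycl (ENSMUSG00000028654.9, chr4:122995652-123002485, plus strand), the MYC paralog known in dendritic cells, was close to the limit of these libraries. It had 22 counts in replicate 1 and 2 counts in replicate 2, listed as 0.09 and 0.01 TPM. The count of replicate 2 lies under the floor of 3 counts that a count of 0 allows, 0.0619 CPM, that is, counts over the library's total. In CPM, replicate 1 was 19.1 times replicate 2 (exact 95% interval 4.70 to 168, counting error only). Its deposited intervals, 0.101 to 0.397 and 0.0137 to 0.206 TPM, lie above the listed TPM because they follow the posterior means of 0.23 and 0.09 TPM. All of these values are below 1 TPM.

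Max (ENSMUSG00000059436.8, chr12:76937269-76962201, minus strand) encodes the partner that MYC, MXD, MNT and MGA proteins share. It had 11.8 TPM in replicate 1 (11.1 to 12.1) and 13.3 TPM in replicate 2 (12.7 to 13.7), an average of 12.6 ± 1.07 TPM (SD, n = 2). Its order with Myc turned between the libraries: Max was the higher gene in replicate 1 and Myc in replicate 2. Max was 2.00-fold above Mycn and 2.62-fold above Mxd1 by the mean log2 ratio.

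Among the MXD genes, which encode small repressors that recruit SIN3, Mxd3 was the lowest, and Mxd4, Mxd1 and Mxi1 were not ordered among themselves. Mxd4 (ENSMUSG00000037235.9, chr5:34173883-34187720, minus strand) had 5.45 TPM in replicate 1 and 4.80 TPM in replicate 2. Mxd1 (ENSMUSG00000001156.7, chr6:86647042-86669161, minus strand), known as a marker of differentiating cells, had 4.74 and 4.81 TPM. Mxi1 (ENSMUSG00000025025.9, chr19:53310518-53375810, plus strand), the gene of the protein also called MXD2, had 4.30 and 5.02 TPM. The highest of these 3 was Mxd4 in replicate 1 and Mxi1 in replicate 2, and their means lay between 4.66 and 5.13 TPM. Mxd3 (ENSMUSG00000021485.9, chr13:55325168-55329823, minus strand), known for its activity in proliferating cells, had 1.45 TPM in replicate 1 (1.23 to 1.71) and 1.06 TPM in replicate 2 (0.910 to 1.27). That was 3.85-fold below Mxd1, 4.13-fold below Mxd4 and 3.75-fold below Mxi1. The values of Mxd3 rest on 144 and 150 counts, the fewest of the detected members. Mxd3 also overlaps Prelid1 on the opposite strand, which had 1272 and 2241 counts. Whether counting used strand is not stated, so reads from the 2 genes cannot be told apart where they overlap. Of the 6 genes that overlap a member in GENCODE M21, 2 were in these tables, Prelid1 and Gm10197, and Gm10197 had 0 counts.

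Mnt (ENSMUSG00000000282.8, chr11:74830920-74845725, plus strand), a MAX partner known to be expressed in most tissues, had 1.35 TPM in replicate 1 and 1.29 TPM in replicate 2. It was not ordered with Mxd3 and was 3.62-fold below Mxd1. Mga (ENSMUSG00000033943.11, chr2:119897228-119969581, plus strand) encodes a very large protein with a T-box besides its helix-loop-helix. It had 20.2 TPM in replicate 1 (19.2 to 21.5) and 20.7 TPM in replicate 2 (19.9 to 21.6), above 94.1% and 92.2% of protein-coding genes. Mga was 1.63-fold above Max and 15.5-fold above Mnt. It also took 12599 of the 23238 network counts in replicate 1 and 22739 of 40452 in replicate 2.

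Much of the TPM of Mga came from short transcripts annotated without a coding sequence. Its 5 coding transcripts held 53.9% of the gene's TPM in replicate 1 and 63.2% in replicate 2, against 94.0% and 95.3% of its counts. The other 10 transcripts held 9.31 and 7.63 TPM from only 750 and 1068 counts. TPM weights a read of a short transcript more than a read of a long one, and these include Mga-207, a retained intron of 985 nucleotides. From coding transcripts alone, Mga stood at 10.9 TPM in replicate 1 and 13.1 TPM in replicate 2, or 12.0 ± 1.55 TPM (SD, n = 2). On that footing Mga lay below Max, at 11.8 and 13.3 TPM, in both libraries. It lay above Myc in replicate 1 (9.44 TPM) and below Myc in replicate 2 (15.2 TPM). With the bounds of its transcripts summed, Mga was not ordered with Max or Myc, while the other 29 ordered pairs kept their direction.

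Summed by role, the 6 antagonists held 37.5 TPM in replicate 1 and 37.7 in replicate 2, against 15.9 and 21.4 TPM for the 3 MYC paralogs. The log2 ratio of antagonists to MYC paralogs was 1.24 in replicate 1 and 0.82 in replicate 2, a mean of 1.03 ± 0.30 (SD, n = 2) or 2.04-fold. The sum of the antagonists differed little between the libraries, and the sum of the MYC paralogs was higher in replicate 2. From coding transcripts alone the mean log2 ratio was 0.67 ± 0.25. The 4 MXD genes by themselves held 15.9 and 15.7 TPM. Their log2 ratio to the MYC paralogs was 0.00 in replicate 1 and -0.45 in replicate 2, a mean of -0.22 ± 0.32. The excess over the MYC paralogs thus did not hold for the MXD genes alone. Of the other antagonists, Mga held 20.2 and 20.7 TPM and Mnt 1.35 and 1.29 TPM, so the excess rested mainly on Mga.

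Max transcripts were fewer than those of the other 9 members together, whose proteins dimerise with MAX. Max held 11.8 TPM in replicate 1 and 13.3 in replicate 2, against 53.4 and 59.1 TPM for the other 9 members together. The log2 ratio was -2.18 and -2.15, a mean of -2.16 ± 0.02 (SD, n = 2). The sum of the other members includes the non-coding transcripts of Mga. From coding transcripts alone the mean log2 ratio was -1.92 ± 0.04. These are transcript levels, and protein levels were not measured.

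**Figure D2:**
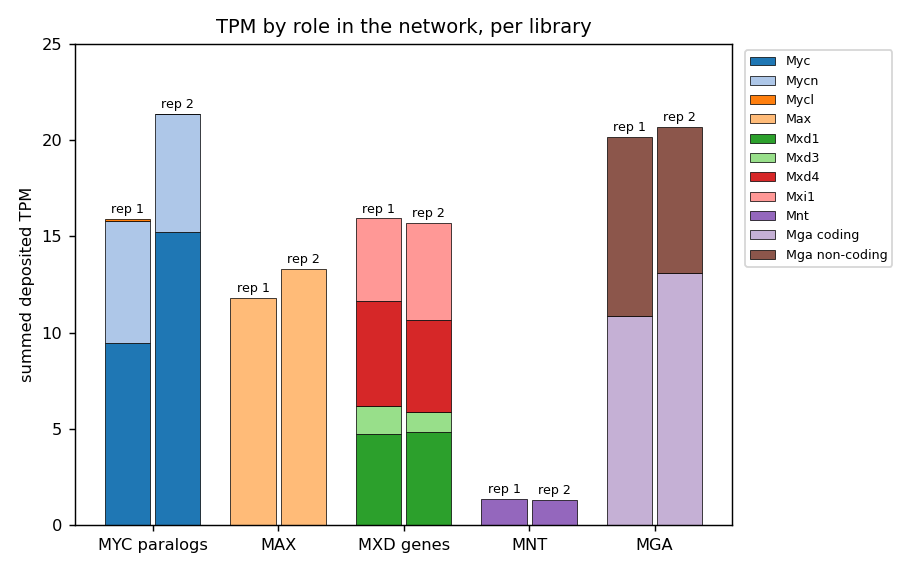
Deposited TPM (linear axis) of the MYC paralogs, MAX, the MXD genes, MNT and MGA, stacked by gene, with replicate 1 left of replicate 2 in each pair of bars. MYC paralogs sum to 15.9 and 21.4 TPM, the MXD genes to 15.9 and 15.7 TPM, and non-coding transcripts make up 9.31 and 7.63 TPM of the MGA bars.

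No member was called apart between the replicates, which asked for a mean of at least 1 TPM, more than 2-fold and intervals that did not overlap. Over all protein-coding genes with that mean, 9.27% were called apart, 2.26% as higher in replicate 1 and 7.01% as higher in replicate 2. With over 1.5-fold as the limit, Myc alone was called on deposited TPM, as higher in replicate 2, a call that 24.6% of those genes shared. On TPM over protein-coding genes and on TMM-scaled counts the 1.5-fold call fell on Mxd3 instead, as higher in replicate 1. There 13.2% and 9.9% of those genes were called in that direction. With no minimum fold, 4 members were called on deposited TPM, 8 on TPM over protein-coding genes and 7 on TMM-scaled counts, where 71.1%, 63.8% and 69.5% of those genes were.

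The scale matters here because the median protein-coding gene with at least 1 TPM moved with it. Its log2 difference, replicate 1 over replicate 2, was -0.29 on deposited TPM, 0.02 on TPM over protein-coding genes and -0.04 on TMM-scaled counts. Myc stood at -0.69, -0.37 and -0.43 on these 3 scales, below that median on each and lower in replicate 1 on each. It was the only member lower in replicate 1 under all 4 scalings computed, the fourth being DESeq2 size factors. Mycn, Mycl, Mxd3, Mxd4 and Mnt had the larger value in replicate 1 under all 4. Mxd3 stood at 0.45, 0.77 and 0.74, the largest difference among the 9 detected members on the last 2 scales. The direction of Max, Mxd1, Mxi1 and Mga depended on the scaling, so none is given for them. Markers of neutrophils and erythroid cells, whose sums are given above, also differed between the libraries, and their part in the values of Myc and Mxd3 was not tested.

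**Figure D3:**
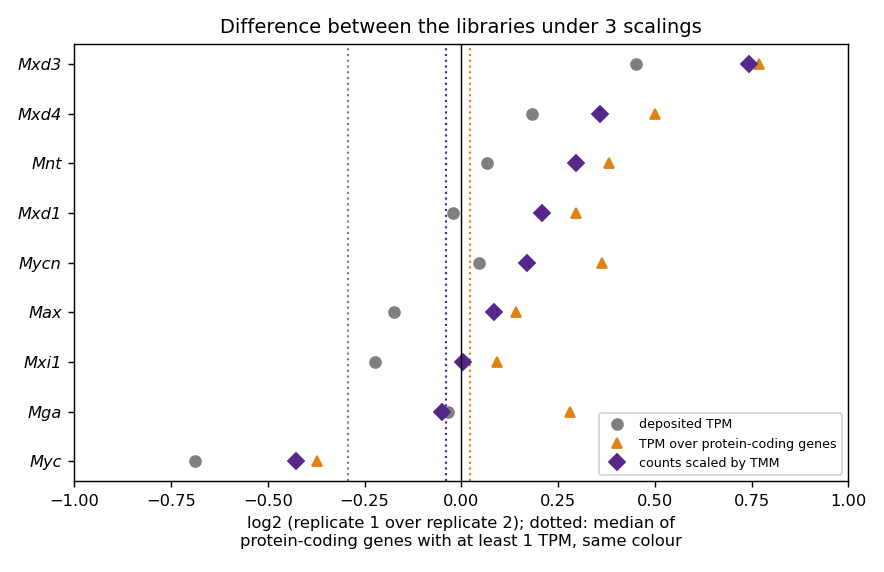
Difference between the libraries, log2 of replicate 1 over replicate 2, for the 9 detected members on deposited TPM (circles), TPM over protein-coding genes (triangles) and TMM-scaled counts (diamonds), with the median protein-coding gene on each scale as a dotted line. Myc lies left of the median on every scale, at -0.69, -0.37 and -0.43, and Mxd3 lies furthest right.

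The 10 genes have 45 annotated transcripts, and the deposited isoform percent gives each its share of the gene's TPM. Of 39 transcripts in the 8 detected members with more than 1, 5 were apart between the libraries, by at least 20 points of isoform percent and TPM intervals that did not overlap. Among all 45042 transcripts of genes with several transcripts and at least 1 TPM in both libraries, 9.83% were apart. These limits were chosen after the values were seen. With 10 points as the limit 8 transcripts were apart, against 19% of all, and with 30 points 2 were, against 5.34%. The 5 were Mycn-201, Mycn-202, Myc-207, Max-201 and Mxi1-202.

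Mycn showed the widest exchange. Mycn-201 held 16.6% of the gene in replicate 1 and 100% in replicate 2, or 1.05 and 6.16 TPM. Mycn-202 held 79.6% in replicate 1 and 0% in replicate 2, or 5.06 TPM and a listed 0 TPM. The intervals of the gene total overlapped. Both have an annotated coding length of 1386 nucleotides, and their starts lie 1298 nucleotides apart. The 2 forms thus differ in their annotated start and not in coding length.

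Myc has 8 annotated transcripts, all coding. Those at the most upstream start, Myc-201 and Myc-205, share their coordinates and were given the same share, 17.2% each in replicate 1 and 32.9% each in replicate 2. Together they held 34.5% and 65.7%. The next start lies 173 nucleotides downstream. Of the other forms, Myc-204 held 22.5% and 15.4%, Myc-202 held 21.9% and 5.72%, and Myc-206 held 0% and 12.6%. Myc-207 held 21.1% in replicate 1 and 0.54% in replicate 2. Its length was 2390 nucleotides in the deposited tables and is 1365 in GENCODE M21, so the start of the form that was quantified is not known here. The TPM bounds of Myc-201 and Myc-205, summed over the pair, were 0.0437 to 6.75 TPM in replicate 1 and 1.94 to 17.1 TPM in replicate 2. These summed ranges were wide and overlapped between the libraries. Because the 2 transcripts share their coordinates, a read can be placed on either, and summed bounds can overstate the range of the pair. Whether the share of the pair differed between the libraries beyond read assignment was therefore not decided by them.

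Max makes a long and a short protein that differ by a short exon near the amino terminus, ahead of the DNA-binding region. Max-202 holds the exon and Max-201 lacks it. In GENCODE M21 this is exon 2 of Max-202, at chr12:76961263-76961289 on the minus strand of GRCm38, 27 nucleotides or 9 codons that keep the reading frame. The sequences are shown because the 2 major forms of the shared partner differ by them; the exon is in capitals between 12 flanking bases on each side, and the junction without it follows.
Max-202: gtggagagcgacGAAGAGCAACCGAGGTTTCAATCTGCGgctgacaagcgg
Max-201: gtggagagcgacgctgacaagcgg

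Both forms of Max were present in both libraries. The form without the exon, Max-201, held 43.1% of Max TPM in replicate 1 and 63.2% in replicate 2. In TPM this was 5.08 (4.23 to 5.71) and 8.41 (7.13 to 9.31), and the intervals did not overlap. The form with the exon, Max-202, held 56.9% in replicate 1 and 36.8% in replicate 2. Its 6.71 TPM in replicate 1 (5.84 to 7.35) and 4.90 TPM in replicate 2 (3.94 to 6.04) had overlapping intervals. The long form led in replicate 1 and the short form in replicate 2.

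Mxi1 has starts that lie 18895 nucleotides apart in GENCODE M21. There Mxi1-201 and Mxi1-203 are 2627 and 2340 nucleotides long, against 5156 and 4843 in the deposited tables, so the quantified forms differ from these models. The upstream transcript, Mxi1-201, has a coding length of 885 nucleotides. Those from the downstream starts, Mxi1-203 and Mxi1-202, have 684 and 576. The downstream transcripts held 82.3% of Mxi1 TPM in replicate 1 and 93.0% in replicate 2. Within them Mxi1-203 held 64.7% and 51.5% of the gene, and Mxi1-202 held 17.6% and 41.5%. The upstream Mxi1-201 held 17.7% in replicate 1 and 6.99% in replicate 2, or 0.76 TPM (0.587 to 0.957) and 0.35 TPM (0.214 to 0.539). The shorter forms therefore made up most of Mxi1 in both libraries, and the split between Mxi1-202 and Mxi1-203 differed between them.

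The promoter windows of these starts, from 250 bases before to 50 after a RefSeq start (GRCm38.p6, plus strand), are shown because they belong to the minor and the major start. The upstream window is chr19:53310256-53310555, and the downstream one, of the start of Mxi1-203, is chr19:53329163-53329462. A further downstream window overlaps it at chr19:53329445-53329744 and is not printed. Capitals mark GGGCGG, the GC box, searched on both strands with overlapping matches counted: 1 in the upstream window and 4 in each downstream one. The motif is in 35.7% of all 32851 promoter windows of RefSeq genes. Base composition also differed, with 56.0% G and C in the upstream window and 63.0% and 75.0% in the downstream ones.
Mxi1 upstream start: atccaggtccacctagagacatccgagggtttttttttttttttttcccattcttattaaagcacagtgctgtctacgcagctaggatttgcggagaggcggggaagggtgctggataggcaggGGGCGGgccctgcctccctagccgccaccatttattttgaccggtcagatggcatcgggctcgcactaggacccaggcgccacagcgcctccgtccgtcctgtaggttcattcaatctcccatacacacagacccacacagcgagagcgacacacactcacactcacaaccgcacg
Mxi1 downstream start: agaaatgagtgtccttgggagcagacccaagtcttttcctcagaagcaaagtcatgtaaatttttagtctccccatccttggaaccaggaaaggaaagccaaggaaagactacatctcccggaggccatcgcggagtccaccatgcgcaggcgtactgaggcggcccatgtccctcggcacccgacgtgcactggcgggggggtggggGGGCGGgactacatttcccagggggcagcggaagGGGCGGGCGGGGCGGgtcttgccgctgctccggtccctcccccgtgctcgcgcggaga

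The other members used mainly 1 transcript. Mxd1-201 and Mnt-201 held 100% of their gene in both libraries. Mxd4-201 held 94.5% in replicate 1 and 100% in replicate 2, and Mxd3-201 held 96.7% and 97.3%. The rest of Mxd4 was Mxd4-202, at 5.48% and 0%. The few counts of Mycl were placed mainly on Mycl-202, with 85.6% in replicate 1 and 100% in replicate 2, and on the non-coding Mycl-205, with 14.4% and 0%. Among the coding transcripts of Mga, Mga-201 held 30.2% in replicate 1 and 26.1% in replicate 2, and Mga-204 held 18.1% and 23.8%. For each of the 9 detected members, the transcript with the highest mean share over both libraries was taken. Its median share was 64.7% in replicate 1 and 97.3% in replicate 2. In 3 members the main transcript differed between the libraries, so these are not the shares of each library's own leading transcript.

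**Figure D4:**
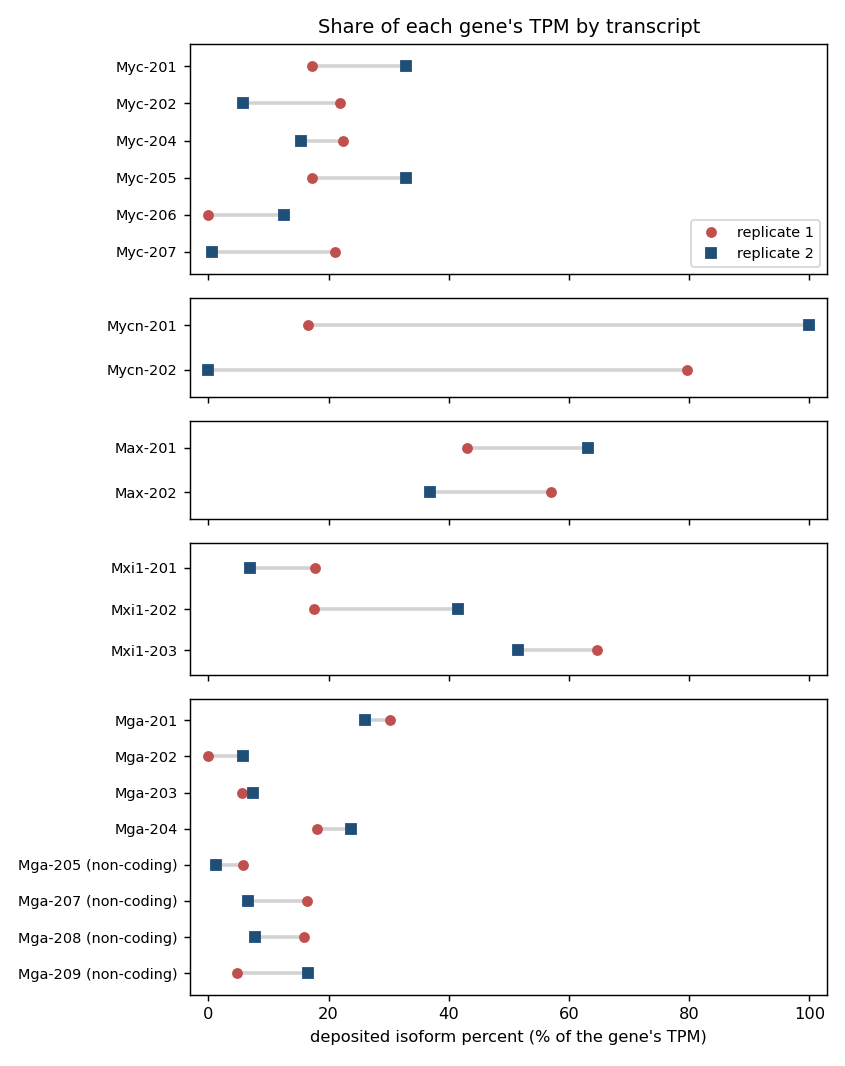
Deposited isoform percent (share of the gene's TPM, linear axis) of each transcript with at least 5% of its gene in either library, in replicate 1 (circles) and replicate 2 (squares), for Myc, Mycn, Max, Mxi1 and Mga. Mycn-201 stands at 16.6% and 100% and Mycn-202 at 79.6% and 0%, the longest lines in the plot.

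The E-box that network dimers bind was present in the promoter windows of 3 network genes themselves. CACGTG, which reads the same on both strands, occurred in a window of Max, Mnt and Mxd4, 3 of the 9 members with an entry in the RefSeq table, which are all except Myc. Of 27025 genes with an entry 8.09% held it. The matches are shown in 26 bases each, read along the gene's strand, because these genes carry the network's own motif near their start. Capitals mark the E-box, whose first base lies at -3 from the start in Max, at -123 in Mnt and at -219 in Mxd4. They lie at chr12:76962236-76962261 (minus strand), chr11:74830791-74830816 (plus strand) and chr5:34187914-34187939 (minus strand) of GRCm38.p6.
Max: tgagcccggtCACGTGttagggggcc
Mnt: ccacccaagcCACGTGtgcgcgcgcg
Mxd4: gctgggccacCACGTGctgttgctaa

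The Mondo and MLX arm is a parallel network that answers to glucose and shares members with this one, since MLX dimerises with MXD1, MXD4 and MNT as well as with the MondoA and ChREBP proteins. Mlx averaged 8.35 ± 1.24 TPM and Mlxip, the MondoA gene, 3.38 ± 0.148 TPM (SD, n = 2). Mlxipl, the ChREBP gene, was listed at 0 with 0 counts in both libraries. Txnip, the best-known MondoA target and an inhibitor of glucose uptake, had 77.8 TPM in replicate 1 and 67.3 in replicate 2. Arrdc4, another such target, had 3.88 and 3.0 TPM. Mlx was thus below Max and above each MXD gene by its mean.

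All 17 genes of MYC cofactors were detected, with medians of 9.45 TPM in replicate 1 and 10.9 in replicate 2. The highest were Ruvbl1 (24.9 and 49.5 TPM) and Ruvbl2 (18.3 and 28.1 TPM), which encode the ATPases of the TIP60 and INO80 complexes. Ccnt1, the cyclin of the elongation kinase P-TEFb, and Actl6a followed at 21.5 ± 5.49 and 15.8 ± 2.56 TPM (SD, n = 2). Zbtb17, which encodes the MYC partner MIZ1, was among the lowest at 4.07 ± 0.693 TPM (SD, n = 2).

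The corepressors of the antagonists were also all present, with 17 of 17 SIN3 complex genes and 13 of 13 genes of the MGA Polycomb complex detected. Medians were 10.6 and 17.8 TPM for SIN3, and 12.6 and 15.5 TPM for the Polycomb complex. Sin3a, the scaffold that MXD and MNT proteins bind, had 21.6 TPM in replicate 1 and 24.7 in replicate 2, and its intervals overlapped. Rbbp7 averaged 60.4 ± 19.6 TPM, the deacetylase gene Hdac2, which is on both lists, 35.9 ± 9.46 TPM and Rbbp4 22.6 ± 5.01 TPM (SD, n = 2). Brms1l at 3.54 ± 1.80 TPM and Sap130 at 3.35 ± 1.00 TPM were lowest. Brms1l was the only SIN3 gene apart between the libraries on deposited TPM, as higher in replicate 2. Of the 9443 protein-coding genes detected in both libraries, 541 were apart in that direction. On TMM-scaled counts no SIN3 gene was apart, and Brms1l stood at -0.84 on the log2 scale. On that scale 121 of the 9443 were apart as higher in replicate 2 and 227 as higher in replicate 1. Of the Polycomb list, Cbx3 averaged 95.1 ± 40.4, Rnf2 30.3 ± 11.1 and Cbx1 24.6 ± 11.6 TPM (SD, n = 2). Pcgf6, the subunit that defines the complex with MGA, stood at 2.98 ± 0.219 TPM, and Ring1 at 2.47 ± 1.07 TPM.

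Genes for enzymes that set the stability of MYC proteins were detected in 20 of 21 cases, all except Pim2. Their medians were 3.95 TPM in replicate 1 and 6.45 in replicate 2. The highest were the kinase gene Pim1 (41.0 and 68.3 TPM), the ubiquitin ligase gene Huwe1 (27.5 and 30.2 TPM) and the phosphatase subunit gene Ppp2r5a (29.0 and 27.6 TPM). The lowest were Fbxo32 at 1.36 ± 0.148 TPM and Pim2 at 0.945 ± 0.445 TPM (SD, n = 2). On deposited TPM none of the 20 detected was apart as higher in replicate 1, against 143 of the 9443 protein-coding genes detected in both libraries. As higher in replicate 2, 2 of the 20 were, against 541 of the 9443. These were Plk1 (2.89 and 7.52 TPM) and Trim32 (1.2 and 3.24 TPM). On TMM-scaled counts Plk1 alone of these 20 was apart, at -1.13 on the log2 scale, and Trim32 stood at -0.34. Of the 9443 genes, 121 were apart on that scale as higher in replicate 2 and 227 as higher in replicate 1. Pim2, below 1 TPM in replicate 2, was not part of these calls.

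Of 30 known MYC target genes 28 were detected, with medians of 16.4 TPM in replicate 1 and 24.8 in replicate 2, above those of the network itself at 5.10 and 4.92 TPM. The highest were the ribosome biogenesis genes Npm1 (408 and 618 TPM), Nop58 (224 and 380 TPM) and Ncl (117 and 205 TPM), followed by the cell cycle kinase gene Cdk4 (104 and 99.1 TPM). Tert and Bcat1 were lowest. Tert averaged 0.390 ± 0.141 TPM (SD, n = 2), and Bcat1 was listed at 0 in replicate 1 and at 0.16 TPM in replicate 2. The median log2 difference of the targets was -0.59 on deposited TPM, -0.27 on TPM over protein-coding genes and -0.34 on TMM-scaled counts, against -0.29, 0.02 and -0.04 for all detected protein-coding genes. On deposited TPM 5 targets had the larger value in replicate 1 and 24 in replicate 2. On TPM over protein-coding genes these were 9 and 20, and on TMM-scaled counts 6 and 23. Bcat1, listed at 0 in replicate 1, is left out of these counts. The same counts were not made over all protein-coding genes, whose median difference is given above. The neutrophil and erythroid markers, whose sums are given above, also differed between the libraries, and their part in these values was not tested. On deposited TPM 4 of the 28 detected targets were apart as higher in replicate 2, Hspd1, Pa2g4, Odc1 and Nme1. Of the 9443 protein-coding genes detected in both libraries, 541 were apart in that direction. None of the 28 was apart as higher in replicate 1, against 143 of the 9443. On TMM-scaled counts none was apart in either direction, against 5.46% of 9900 protein-coding genes with a mean of at least 1 TPM. That set is wider than the 9443 genes detected in both libraries, to which the 28 targets compare directly. Of the 9443, 227 were apart on that scale as higher in replicate 1 and 121 as higher in replicate 2. CACGTG was in a promoter window of 7 of the 25 targets with an entry and of 3 of the 5 genes of the Mondo and MLX arm. It was in 2 of 16 cofactor genes, 1 of 13 SIN3 genes, 1 of 10 genes of the Polycomb complex, 2 of 17 stability genes and 0 of 3 of the Myc locus list, beside the 8.09% of all genes.

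At the Myc locus, the neighbouring noncoding RNA gene Pvt1 had 0.67 TPM in replicate 1 and 1.16 in replicate 2. Its intervals did not overlap, and it was lower in replicate 1 on deposited TPM and on TMM-scaled counts, at -0.79 and -0.35 on the log2 scale. Separate intervals on deposited TPM were common, at 71.1% of protein-coding genes with a mean of at least 1 TPM. Mycbp, the gene of a MYC-binding protein, had 3.23 and 3.77 TPM. Of the MYC homologs, Bmyc had 1.92 TPM in replicate 1 and 1.31 in replicate 2, and Mycs was listed at 0 in both. The intervals of Bmyc did not overlap either, and it was higher in replicate 1, at 0.55 on deposited TPM and 0.86 on TMM-scaled counts.

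**Figure D5:**
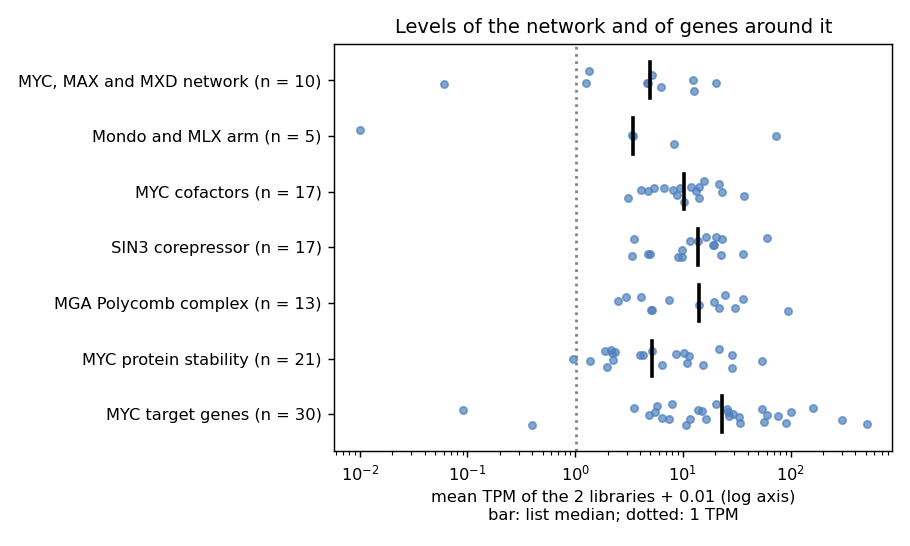
Mean TPM over the 2 libraries plus 0.01 (log axis) of every gene in the network and in 6 lists around it, with the list median as a bar. The MYC target genes reach the highest levels, with Npm1 at 513 TPM, and Mycl and Mlxipl are the points at the far left of their rows.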

How the data were processed

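Each library had a gene and a transcript table. Per the sample text files, these use mm10 and GENCODE M4. Neither aligner nor counter is named there. What the authors deposited, per the file headers, was expected counts (estimated counts), TPM, FPKM, posterior means of these, the isoform percent, and interval bounds on the TPM scale, treated as a score. TPM and FPKM were scaled by the authors. The width of the bounds implied a level of about 95% (94.9 in replicate 1, 95.0 in replicate 2).

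The members and lists were chosen with earlier results of these data known. Gene names matched 42462 identifiers, and unmatched ones held 0.253% and 0.231% of counts. Positions, transcript classes and coding lengths came from GENCODE M21, whose transcript ends can differ from M4. Promoter sequences are RefSeq's (GRCm38.p6), and the exon was read from the GENCODE M21 transcript sequences (GRCm38). Named were all members, their transcripts with at least 5% of a gene, the 4 highest and 2 lowest genes of each list by mean TPM, all of the Mondo and MLX arm and all genes of the Myc locus list. Some genes under this rule are not reported here. Slamf1, Flt3, Cd48, Prelid1, Gm10197, Plk1, Trim32, Hspd1, Pa2g4, Odc1 and Nme1 were named after their values were seen. Marker lists were summed, and those of monocytes, megakaryocytes, B cells, T cells and stromal and endothelial cells summed to 369, 17.9, 5.07, 3.16 and 8.68 TPM in replicate 1 and to 170, 24.1, 3.48, 2.82 and 9.74 TPM in replicate 2.

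No differential test can be made in 1 group. Expected counts were rounded and scaled with edgeR 4.0.16 and DESeq2 1.42.0 in R 4.3.3. Other steps used Python 3.11.15 with pandas 2.3.3. Library sizes allow floors of 0.108 and 0.0619 CPM, for counting error only. Alternatives were other thresholds, scalings and each library alone.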

Additional observations from a re-analysis of the deposited data

How the results depend on the processing

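No paired analysis was possible because the series has 1 group. Detection of members gave 9 of 10 under 1 TPM and 7 at 2 TPM. The 31 ordered pairs became 28 without division by length, where 3 pairs of Mycn turned and 5 were lost, 26 at 1.5-fold, and 29 from coding transcripts. Each library alone gave between 32 and 35. The count of members apart, 0 at 2-fold under each scaling, was 1 at 1.5-fold on deposited TPM, on TPM over protein-coding genes and on TMM-scaled counts. With no minimum fold it was 4, 8 and 7 on these scales. The log2 ratio of antagonists to MYC paralogs, 1.03, was 2.57 without division by length, 0.67 from coding transcripts, and -0.22 for MXD genes alone. That of Max to the other 9 members, -2.16, was -3.59, -1.92 from coding transcripts and -2.08 with a pseudocount of 1 TPM. Member transcripts apart were 5 at 20 points, 8 at 10 points and 2 at 30 points. Analyses on coding transcripts, on 2 choices together and on isoform points were chosen after seeing the data. The other 46 values kept their side or moved by less than the spread between libraries, apart from 4 transcript shares (Mxd3-201, Mnt-201 and Mga-201). With 2 libraries, a spread has 1 degree of freedom, and transcripts that share most of their sequence limit the shares.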
